A study of Mus musculus with 12 samples.

Results

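The Hox cluster genes are the homeodomain transcription factor genes of the HoxA, HoxB, HoxC and HoxD clusters. They were taken as every gene symbol of the form Hoxa, Hoxb, Hoxc or Hoxd followed by a number, without regard to any measured value. Of 39 such genes in the GENCODE M21 annotation, 36 had values in the 5-day comparison, among 18765 genes. Of these 36, 24 also had values in the 10-day comparison, among 18712 genes, and 12 had values at 5 days only. Hoxa6, Hoxc9 and Hoxd3 were not analysed here.

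The cells were E14 mouse embryonic stem cells of the genotype RACK1-AID/RPS26-Tir1, called a Ribo-Tweezer line, and the controls carried the same alleles. An auxin-inducible degron (AID) on RACK1, a protein of the small ribosomal subunit, is recognised by the auxin receptor Tir1, here carried by the ribosomal protein RPS26. In the presence of the auxin indole-3-acetic acid (IAA), such a tagged protein is degraded. Poly(A) RNA was sequenced in 12 libraries of 4 groups with 3 libraries each. Cells were kept for 5 days in IAA or in its solvent control DMSO. Another pair of groups was measured 10 days after a 5-day course of IAA had ended, against a DMSO control. The 5-day comparison asks how transcripts change during IAA, the later one what remains after recovery. The labels leave unstated whether the line is 1 clone and whether the numbered replicates grew apart. The p-values therefore reflect library-to-library variation that may be only technical.

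Hox proteins give cells their position along the head-to-tail axis of the embryo. Within a cluster the genes at one end (the anterior groups, with low numbers) are switched on first and nearest the head, and those at the other end (posterior groups, with high numbers) last and nearest the tail. In embryonic stem cells the clusters are held nearly silent by Polycomb complexes. Retinoic acid, WNT and FGF signals and the CDX factors open them, and PBX and MEIS proteins of the TALE family bind DNA together with many Hox proteins. In the mouse, mutation of the ribosomal protein gene Rpl38 alters the translation of a subset of Hox mRNAs.

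Of the 5 Hox genes that rose after 5 days of IAA, 4 had a promoter in the RefSeq promoter table (GRCm38.p6). The 250 bases before their start are shown because these members passed the test in the same direction. Whether they are regulated together was not tested. Capitals mark TGATNNAT on either strand, a sequence bound by PBX-Hox pairs.
Hoxa2, chr6:52164832-52165081, minus strand: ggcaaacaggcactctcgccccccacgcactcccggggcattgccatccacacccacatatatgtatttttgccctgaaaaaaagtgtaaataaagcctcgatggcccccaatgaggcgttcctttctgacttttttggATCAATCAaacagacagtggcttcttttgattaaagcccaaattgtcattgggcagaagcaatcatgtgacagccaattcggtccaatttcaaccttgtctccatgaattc
Hoxb1, chr11:96365508-96365757, plus strand: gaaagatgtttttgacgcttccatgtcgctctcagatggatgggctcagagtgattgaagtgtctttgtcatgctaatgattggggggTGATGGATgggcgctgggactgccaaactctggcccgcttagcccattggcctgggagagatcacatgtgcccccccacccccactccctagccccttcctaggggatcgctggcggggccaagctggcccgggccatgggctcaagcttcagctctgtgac
Hoxb8, chr11:96281655-96281904, plus strand: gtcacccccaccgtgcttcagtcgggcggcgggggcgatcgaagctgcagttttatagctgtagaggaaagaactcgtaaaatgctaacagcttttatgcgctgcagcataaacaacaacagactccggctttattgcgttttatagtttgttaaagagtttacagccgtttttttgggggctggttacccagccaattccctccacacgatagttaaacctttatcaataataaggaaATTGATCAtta
Hoxd13, chr2:74667975-74668224, plus strand: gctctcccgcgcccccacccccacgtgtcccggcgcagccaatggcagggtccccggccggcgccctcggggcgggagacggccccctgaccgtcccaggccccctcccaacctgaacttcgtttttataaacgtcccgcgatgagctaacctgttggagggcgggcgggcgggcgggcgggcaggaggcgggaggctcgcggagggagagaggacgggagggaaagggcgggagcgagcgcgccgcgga

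The match was present in Hoxa2, Hoxb1 and Hoxb8 and not in these letters of Hoxd13. Over the whole 300-base windows of the table, which add 50 bases after the start, it was found in 4 of 22 promoters of 20 Hox genes (18.2%), the other one being Hoxd11, and in 8.85% of 32851 promoters. TGATNNAT was searched after these promoters had been chosen, and a match is a description of the letters only. Of other short sequences searched on both strands, CCAAT stood in 13 of the 22 Hox promoters (59.1%, against 37.4% of all) and TATAAA in 4 (18.2%, against 13.6%). The nuclear receptor sequence AGGTCA stood in 6 (27.3%, against 16.3%) and the CDX sequence TTTATGG in 1 (4.55%, against 2.75%). Hox promoters held a median of 13.5 CpG pairs in 300 bases, against 7 over all promoters, and 18 of the 22 lay above that median.

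The deposited files hold the authors' own limma results, with a log2 fold and a mean level over 6 libraries for each gene and no column for a single library. Positive folds are read here as higher in IAA-treated cells, which the headers do not state. If so, the difference in mean level between the tables should follow the 5-day fold with a slope of 0.5, and with -0.5 if reversed. The slope was 0.533 ± 0.0114 (SE) over 4772 genes, those called at 5 days (limma adjusted p under 0.05) among the 18120 in both tables. The SE treats genes as independent, and the check takes the controls of the 2 times as alike. Each SE was obtained by dividing a fold by its moderated t. Levels are log2 CPM (reads scaled to a common library size), and group levels were derived from the mean and the fold. Effective depth was 26.6M reads per library in IAA and 20.4M in DMSO at 5 days, and 22.6M and 19.9M at 10 days, as geometric means. Rack1 RNA had a log2 fold of -0.17 ± 0.04 at 5 days (limma adjusted p = 0.0051) in the authors' deposited table. Its 10-day value there, again from the authors' deposited table, was -0.06 ± 0.09 (limma adjusted p = 0.912). RNA does not show whether RACK1 protein was lost or returned.

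The 36 Hox genes were present at very low levels. Their mean level at 5 days ranged from -5.16 to 1.20 log2 CPM, with a median of -3.93, against 3.03 for all genes. A gene with 0 reads in all 6 libraries would stand at -5.54. Of the members, 3 lay at or above 0, Hoxc13 and Hoxd13 among them, and only Hoxc13 at or above 1. The geometric mean was under 1 read per library for 16 of the 36 members, and 5 reached 10 reads. At 10 days 15 of 24 members lay under 1 read per library and 2 reached 10 reads. In bulk RNA, fewer cells with a transcript and less of it per cell cannot be told apart.

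Per kilobase of transcript Hoxc13 stood highest at 5 days, at -0.10 log2 CPM per kb, and Hoxd13 stood at -0.70. Hoxc13 is a posterior gene known for its role in hair and nails. Hoxd1 followed at -1.82 log2 CPM per kb, Hoxb9 at -2.37 and Hoxb7 at -2.45. The authors' deposited table gives no error for a mean level. With the SE of the fold as the only measure of spread at hand, Hoxb9 and Hoxb7 (SE 0.52 and 0.53) lay closer to each other than that SE. At 10 days Hoxc13 stood at 0.75 log2 CPM per kb, and Hoxc12 at -1.84.

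**Figure D1:**
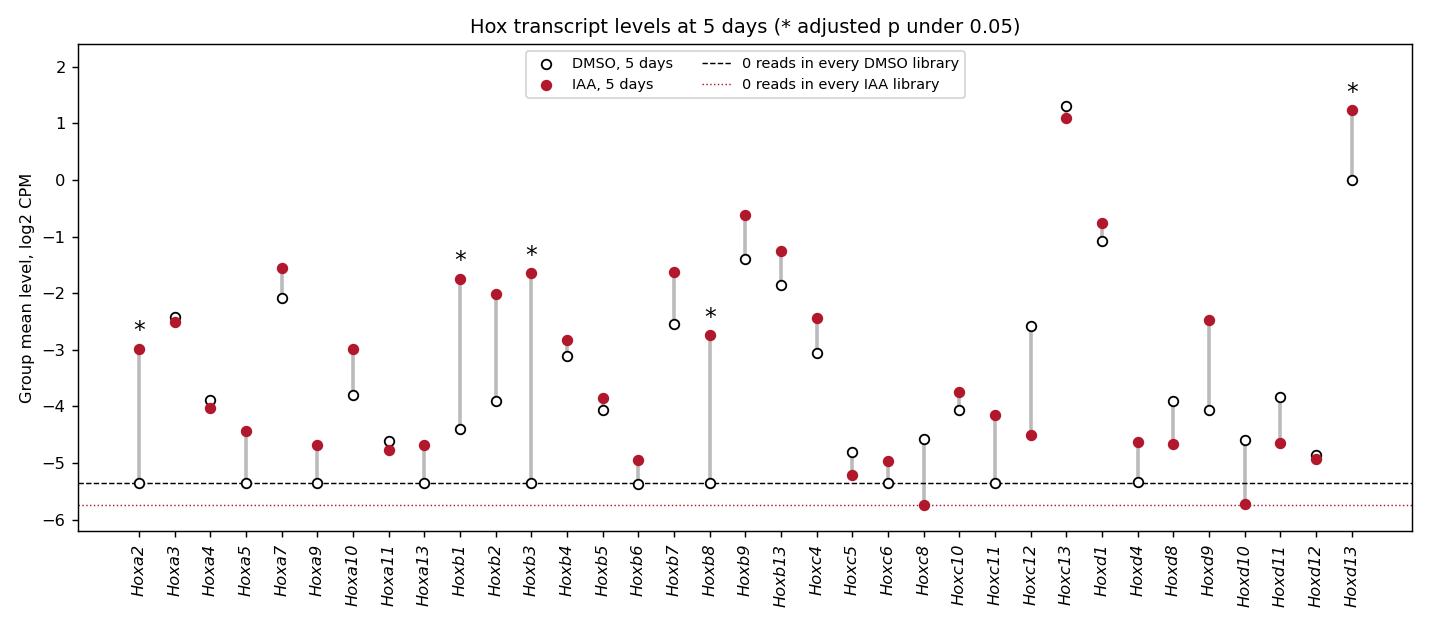
Group mean level (vertical axis, log2 CPM, derived from the authors' mean and fold) of the Hox genes reported by name at 5 days, DMSO as open and IAA as filled points, 3 libraries a group, with no error bar because single libraries have no column. Dashed and dotted lines give the level of a gene with 0 reads in every DMSO or IAA library. Hoxa2, Hoxb3 and Hoxb8 sit on the DMSO line and well above the IAA line, while Hoxc13 and Hoxd13 have means above 0.

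After 5 days of IAA, 5 of the 36 Hox genes rose and 0 fell in the authors' deposited table, at a limma adjusted p under 0.05 (Benjamini-Hochberg, BH). They were Hoxb3, Hoxb1, Hoxb8, Hoxa2 and Hoxd13. The share of Hox genes that rose (13.9%) lay close to the 13.5% of all genes that rose, and 12.1% of all genes fell. In either direction, 25.5% of all genes were called. Against genes of like abundance, 4 of 33 Hox genes with a mean under 0 log2 CPM rose (12.1%), where 6.28% of 5944 such genes rose, 1.63% fell and 7.91% were called in either direction. Folds were above 0 for 25 of the 36 members and below 0 for 11, with a median of 0.47. Of the 25, 9 had reads in IAA libraries only. The size of such a fold depends on the prior count of 0.5 reads added to each library. No listed gene lacked reads in every library (lowest mean -5.29 log2 CPM, against -5.54 without any read). These 9 were thus measured only through their IAA reads, as Hoxc8 and Hoxd10 were only through DMSO reads. The counts of folds above and below 0 therefore describe the listed members only. Over all genes, 9660 of 18765 folds lay above 0, as did 3410 of the 5944 with a mean under 0. The median was 0.01 over all genes and 0.15 over those with a mean under 0. Unadjusted, 7 members and 36.3% of all genes lay under a p of 0.05.

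Of the anterior genes (groups 1 to 3) 3 of 7 rose (42.9%). Of the central genes (groups 4 to 8) 1 of 14 rose (7.14%) and of the posterior genes (groups 9 to 13) 1 of 15 (6.67%). By cluster, 3 of 10 HoxB genes rose (30%), 1 of 10 HoxA genes (10%), 1 of 8 HoxD genes (12.5%) and 0 of 8 HoxC genes. Over all genes 13.5% rose, and 6.28% of those with a mean under 0 log2 CPM. Differences between these groups of genes were not tested, and detection moved with position. Under 1 read per library lay 1 of the 7 anterior genes (median mean level -2.96 log2 CPM), 8 of the 14 central genes (-4.16) and 7 of the 15 posterior genes (-3.90). All 10 HoxB folds lay above 0, with a median of 0.84. Among them, Hoxb3, Hoxb6 and Hoxb8 had no read in DMSO, so that the size of their folds depends on the prior count. Hoxb4 (0.28 ± 0.69) and Hoxb5 (0.21 ± 0.86) had folds smaller than their SE. The anterior median was 1.90, or 1.20 with 2 genes that had no read in DMSO set at their lower bound.

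**Figure D2:**
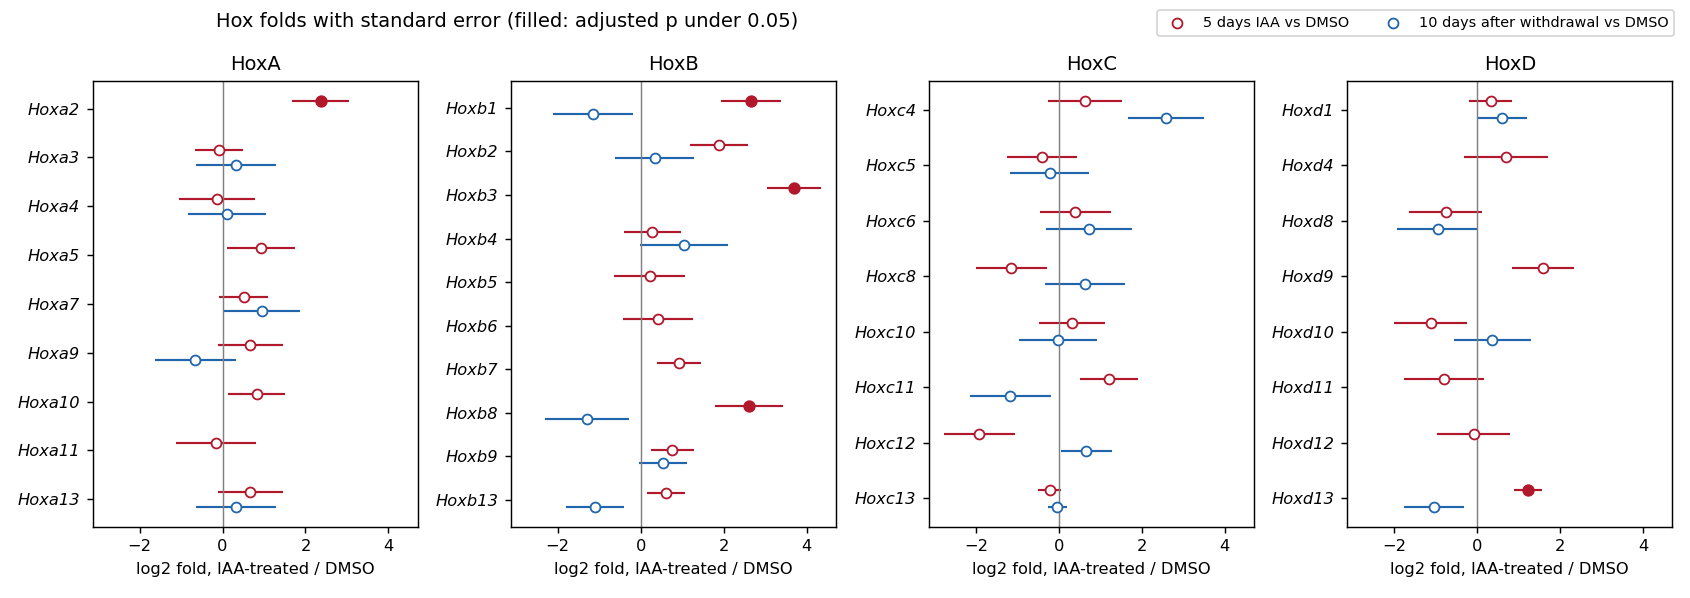
Log2 fold of IAA-treated over DMSO cells (horizontal axis) with its SE for the Hox genes reported by name, by cluster in order of paralogue group, at 5 days (red) and 10 days after withdrawal (blue). Filled points, for Hoxa2, Hoxb1, Hoxb3, Hoxb8 and Hoxd13 at 5 days, passed a limma adjusted p of 0.05, and no 10-day point did. Genes with a red point alone had values at 5 days only.

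Reads could be counted back for the rarest members. The values follow a prior count of 0.5 reads, so that the mean level of a rare gene fixes the product of (2 × reads + 1) over the 6 libraries, and the fold shows how this product divides between the groups. At 5 days the division was clear for 20 members. Of these, 9 had reads in IAA libraries only, namely Hoxa2, Hoxa5, Hoxa9, Hoxa13, Hoxb3, Hoxb6, Hoxb8, Hoxc6 and Hoxc11. Hoxc8 and Hoxd10 had reads in DMSO libraries only, and 9 members had reads in both groups. Hoxb6 and Hoxc6 had 2 reads in 1 IAA library, as Hoxc8 and Hoxd10 had in 1 DMSO library. Hoxa9 and Hoxa13 had 2 to 4 reads in IAA. How often genes outside the clusters divide in this way was not counted, so these counts only describe the members. The IAA libraries were 1.30 times as deep as the DMSO libraries, a difference that moves with the detection of single reads and whose part in it was not tested. Which library held which reads is not known, and the read numbers below take libraries of a group as equally deep.

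Among the anterior genes, Hoxb3, which shapes the hindbrain and its nerves, had the largest fold of all members. It had 0 reads in the DMSO libraries and between 25 and 69 reads over the IAA libraries, with reads in all 3 of them, so the groups did not overlap. Relative to a limit of 3 reads over the DMSO group, Hoxb3 was at least 6.40-fold higher in IAA. The fitted log2 fold was 3.70 ± 0.65 (SE, limma adjusted p = 0.00108) in the authors' deposited table, a value that depends on the prior count where one group has no read. Its transcript (ENSMUST00000093944.9, GENCODE M21 on GRCm38) lies on chromosome 11, 96323326 to 96347930, plus strand, with 4 exons.
The antisense RNA Hoxb3os runs over 70.5% of the Hoxb3 transcript and 58.5% of that of Hoxb2 on the opposite strand, and the sources used here do not say whether strand was used in counting. Hoxb3os itself had reads in DMSO libraries alone, with a log2 fold of -1.70 ± 0.80 (adjusted p = 0.144) in the authors' deposited table. Without a stated use of strand, reads from Hoxb3 and Hoxb3os cannot be told apart.

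Hoxb1, which specifies the fourth segment of the hindbrain and is an early target of retinoic acid, was the clearest at the level of reads. The single set of reads compatible with its values was 6, 8 and 9 reads in the IAA libraries, 23 in all, and 3 reads in 1 DMSO library with 0 in the other two. The lowest IAA library thus lay above the highest DMSO library. Scaled to depth the ratio of reads was 5.89, with an exact 95% binomial interval of 1.78 to 30.6 that covers counting error only. The fitted log2 fold of Hoxb1 was 2.66 ± 0.72 (limma adjusted p = 0.0145) in the authors' deposited table, with group levels of -1.74 log2 CPM in IAA and -4.40 in DMSO. Its transcript (ENSMUST00000019117.2) lies on chromosome 11, 96365752 to 96368256, plus strand, with 2 exons.

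Hoxa2, a gene of hindbrain and neural crest that patterns the second pharyngeal arch, had 0 reads in DMSO and between 9 and 33 reads in IAA, in at least 2 of its 3 libraries. It was at least 2.30-fold higher in IAA on the same limit of 3 reads, and its fitted log2 fold was 2.37 ± 0.69 (limma adjusted p = 0.0221) in the authors' deposited table. Hoxa2 (ENSMUST00000014848.10) lies on chromosome 6, 52162417 to 52164831, minus strand, with 2 exons, and shares 267 exon bases with Gm28308 on the same strand.

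The remaining anterior genes did not pass. Hoxb2, another hindbrain gene, came nearest with a log2 fold of 1.90 ± 0.70 (limma adjusted p = 0.062) in the authors' deposited table. Its level was -2.01 log2 CPM with IAA against -3.91 with DMSO. Hoxd1 had 0.32 ± 0.52 and Hoxa3, which patterns the thymus and neck, -0.09 ± 0.58 in the authors' deposited table.

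Of the central genes only Hoxb8, a gene of the trunk also known for holding blood progenitors in an immature state, rose. It had 0 reads in DMSO and 13 to 25 reads in IAA, in 2 or 3 libraries, and was at least 3.33-fold higher. Its fitted log2 fold was 2.61 ± 0.82 (limma adjusted p = 0.0315) in the authors' deposited table, and the transcript (ENSMUST00000052650.3) spans chromosome 11, 96281905 to 96285315, plus strand, with 2 exons. Its neighbours in the cluster did not pass, with log2 folds of 0.92 ± 0.53 for Hoxb7 and 0.42 ± 0.84 for Hoxb6 in the authors' deposited table. Hoxb5 stood at 0.21 ± 0.86 and Hoxb4 at 0.28 ± 0.69 in the same authors' deposited table.

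Central genes of the other clusters had log2 folds between -1.15 and 0.93, none past the test. Hoxa7 had 0.51 ± 0.59 (limma adjusted p = 0.574) and Hoxc4 0.63 ± 0.88 (adjusted p = 0.656) in the authors' deposited table. Hoxc4 had 10 reads in DMSO, in 2 libraries, and 15 to 47 in IAA, so the groups overlapped. Hoxa4, Hoxa5, Hoxc5, Hoxc6, Hoxc8, Hoxd4 and Hoxd8 had fewer than 2 reads per library in each group. Hoxa5, which acts in the developing lung and skeleton, had 3 to 7 reads in IAA and 0 in DMSO.

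Among the posterior genes Hoxd13, known for digits and the genital tract, rose and was the called gene with the most reads. It averaged 61.8 reads per library in IAA and 19.9 in DMSO, with group levels of 1.23 and 0.00 log2 CPM. Its log2 fold was 1.23 ± 0.34 (limma adjusted p = 0.0178) in the authors' deposited table. Its transcript (ENSMUST00000001872.4) lies on chromosome 2, 74668310 to 74671599, plus strand, with 2 exons. With a mean of 0.61 log2 CPM it was the single call among the 3 members at or above 0.

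The other posterior genes ranged from -1.92 to 1.58 on the log2 fold scale. Hoxd9 had 1.58 ± 0.75 (limma adjusted p = 0.144) and Hoxc12 -1.92 ± 0.86 (adjusted p = 0.124), the largest fold below 0, in the authors' deposited table. Hoxc12 averaged 0.67 reads per library in IAA and 2.91 in DMSO. Hoxc13 had -0.22 ± 0.28 (adjusted p = 0.620) in the authors' deposited table, with 56.2 and 50.3 reads per library. Hoxb9 had 0.76 ± 0.52, Hoxb13 0.60 ± 0.46, Hoxc10 0.32 ± 0.79 and Hoxc11 1.20 ± 0.70 in the authors' deposited table, none past the test. Hoxa9, Hoxa10, Hoxa11, Hoxa13, Hoxd10, Hoxd11 and Hoxd12 had fewer than 3 reads per library in each group, and their folds lay between -1.12 and 0.82.

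**Figure D3:**
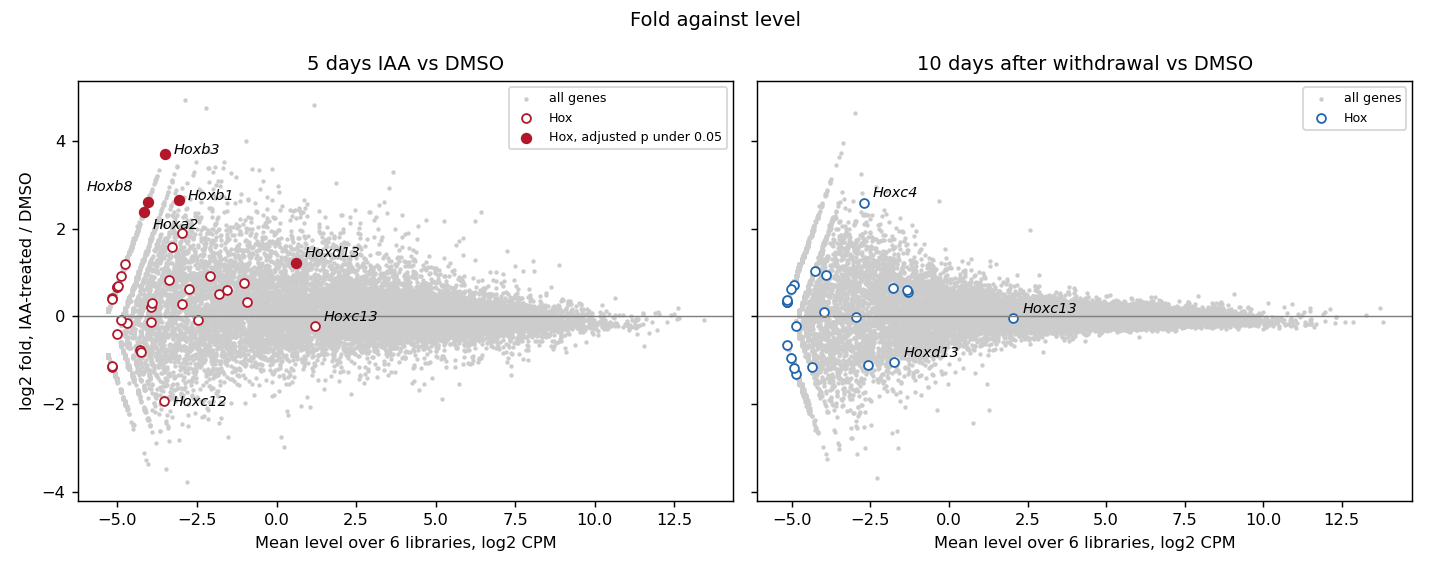
Log2 fold of IAA-treated over DMSO cells (vertical axis) against the mean level over 6 libraries (horizontal axis, log2 CPM) for all genes (grey) and the Hox genes reported by name (coloured), at 5 days and 10 days after withdrawal. The diagonal lines of points at the left are genes with reads in a single group, and Hoxa2, Hoxb3 and Hoxb8 lie on them at 5 days. Hoxd13 is the called Hox gene at the highest mean level, 0.61 log2 CPM.

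At 10 days after IAA was withdrawn, 0 of 24 Hox genes passed in the authors' deposited table (limma BH adjusted p), and neither did any other gene, with 0% of 18712 called. Unadjusted, 1 Hox gene and 4.3% of all genes lay under a p of 0.05. Hox folds were above 0 for 13 members and below 0 for 11, with a median of 0.21 against 0.00 over all genes. The largest fold was that of Hoxc4, a neck and forelimb-level gene, at 2.59 ± 0.91 (unadjusted p = 0.0125, adjusted p = 0.901) in the authors' deposited table. It had 26 to 166 reads in the IAA-withdrawn group, in 2 or 3 libraries, and 3 to 7 in its control. How these reads fell on the libraries is not known.

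Of the 5 genes that had risen, the 3 with values after withdrawal all had folds below 0. Hoxb1 had a log2 fold of -1.15 ± 0.97 at 10 days, with 1 read in the IAA-withdrawn group and 4 to 12 in the control. Hoxb8 had -1.30 ± 1.01, with 0 reads against 2 to 4, and Hoxd13 -1.03 ± 0.72, with 4.22 against 8.03 reads per library. These 3 folds are from the authors' deposited table and did not pass (limma adjusted p = 0.901 for each). Hoxa2 and Hoxb3 had values at 5 days only. The 10-day values include 478 genes with 1 read in 1 library. None stood as low as a gene without any read (lowest mean -5.15 log2 CPM, against -5.41). Members without a 10-day value may thus have had no read there, which the values do not show. In both groups at 10 days Hoxd13 stood lower than in the 5-day control (-2.26 and -1.22 against 0.00 log2 CPM), levels set across 2 tables that were normalized separately.

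Other members at 10 days had SEs from 0.23 to 1.05 on the log2 scale. In the authors' deposited table Hoxc13 stood at -0.04 ± 0.23, Hoxd1 at 0.61 ± 0.59 and Hoxb9 at 0.55 ± 0.58. Hoxc12 stood at 0.66 ± 0.62, Hoxb13 at -1.11 ± 0.70, Hoxc11 at -1.17 ± 0.99 and Hoxa7 at 0.95 ± 0.91 in the authors' deposited table. Hoxc10, at -0.02 ± 0.94, overlaps Hoxc5 by 166 exon bases on the same strand. Of 15 members whose reads could be divided at 10 days, 6 had reads in the IAA-withdrawn group only (Hoxa3, Hoxa13, Hoxb2, Hoxc6, Hoxc8 and Hoxd10). Another 4 had reads in the control only (Hoxa9, Hoxb8, Hoxc11 and Hoxd8), and 5 in both. These counts, too, were not set against a share over all genes.

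The 5-day change differed from the 10-day change for 3 of the 24 Hox genes present in both tables (z test of the difference of the folds, BH adjusted over 18120 genes). Over all genes 10.4% differed, and 3.74% of those with a mean under 0 log2 CPM in both tables. Hoxb1 differed by 3.80 ± 1.20 (adjusted p = 0.0215), Hoxb8 by 3.91 ± 1.30 (adjusted p = 0.0320) and Hoxd13 by 2.26 ± 0.80 (adjusted p = 0.0467) on the log2 scale. With a t reference in place of the normal none of the 3 passed, the smallest adjusted p being 0.0533. Hoxc12 (-2.58 ± 1.06), Hoxb13 (1.71 ± 0.83) and Hoxc11 (2.37 ± 1.21) did not pass (adjusted p = 0.101, 0.190 and 0.218).

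Noncoding RNAs of the clusters were looked at after their values had been seen. Halr1, a long noncoding RNA beside the HoxA cluster on chromosome 6 (52102949 to 52113684, plus strand) that is known to restrain HoxA genes in mouse stem cells, fell. Its log2 fold was -1.26 ± 0.20 (limma adjusted p = 0.000463) in the authors' deposited table, from 2.63 log2 CPM in DMSO to 1.38 in IAA. At 10 days it stood at 0.21 ± 0.23 (adjusted p = 0.907) in the authors' deposited table. Hotairm1, of the same cluster, had 0.61 ± 0.81 and Hoxa11os -0.89 ± 0.83 at 5 days in the authors' deposited table. In all, 13 of the 36 members share exon bases with another gene, 8 of them with one on the opposite strand.

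Of genes that flank the clusters, with the Evx homeobox genes, 4 of 13 fell (30.8%) and 1 rose (7.69%) at 5 days. Over all genes, 12.1% fell and 13.5% rose. Hibadh (-0.51 ± 0.08) and Skap2 (-0.43 ± 0.07) beside HoxA, and Calcoco2 (-0.85 ± 0.14) beside HoxB, fell in the authors' deposited table. Snx11, also beside HoxB, rose by 0.31 ± 0.09 there, while Evx1 had -0.69 ± 0.60 in the authors' deposited table and did not pass.

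Of the TALE cofactors of Hox proteins 4 of 9 rose (44.4%, against 13.5% of all genes) and 0 fell. Pknox2 rose by 0.76 ± 0.23, Meis3 by 0.64 ± 0.20 and Pbx3 by 0.48 ± 0.12 on the log2 scale in the authors' deposited table. Meis1 (-0.68 ± 0.49) and Meis2 (0.71 ± 0.48) did not pass in the authors' deposited table. The list's median fold was 0.48, against 0.01 over all genes.

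Genes of PRC2, the Polycomb complex that methylates histone H3 at lysine 27, went the other way. Of 12 measured, 6 were lower (50%, against 12.1% of all genes) and 0 higher. All 12 had a mean of at least 0 log2 CPM. Among the 12821 genes at that level, with p adjusted among them, 4662 passed in either direction. Falls alone were not counted at that level. Eed, its scaffold subunit, had a log2 fold of -0.49 ± 0.05 and Ezh2, its methyltransferase, -0.37 ± 0.05 in the authors' deposited table. The accessory subunit gene Mtf2 had -0.31 ± 0.05 and the histone-binding subunit gene Rbbp4 -0.19 ± 0.04 in the authors' deposited table. Suz12 (-0.11 ± 0.05) and Jarid2 (0.01 ± 0.05) did not pass in the authors' deposited table. The list's median was -0.16.

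Of subunits of PRC1, another Polycomb complex, 5 of 23 rose (21.7%, against 13.5% of all genes) and 0 fell. Of the 23, 22 had a mean of at least 0 log2 CPM. Bcor (0.64 ± 0.08), Yaf2 (0.67 ± 0.12), Phc2 (0.40 ± 0.09) and Cbx2 (0.30 ± 0.07) led in the authors' deposited table, while Bmi1 (0.64 ± 0.25) and Rnf2 (-0.09 ± 0.05) did not pass. Of Trithorax genes and H3K27 demethylases, which oppose Polycomb, 5 of 14 fell (35.7%, against 12.1% of all genes) and 0 rose. All 14 had a mean of at least 0 log2 CPM. At that level 4662 of 12821 genes passed in either direction, with p adjusted among them. Rises and falls were not counted apart there, so the shares of all genes are not shares at like abundance. Wdr5 (-0.43 ± 0.05), Kmt2c (-0.44 ± 0.09), Ash2l (-0.23 ± 0.05) and Dpy30 (-0.25 ± 0.06) fell in the authors' deposited table. Kmt2a (0.16 ± 0.06) and Kdm6a (0.21 ± 0.07) did not pass in the authors' deposited table.

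Upstream signals were mixed. Of 18 genes of the retinoic acid pathway 3 rose (16.7%) and 1 fell (5.56%), against 13.5% and 12.1% of all genes. Dhrs3, a retinaldehyde reductase (1.40 ± 0.27), the receptor gene Rxrg (1.31 ± 0.23) and Rdh10, which makes retinaldehyde (0.65 ± 0.16), rose in the authors' deposited table. Stra8, a retinoic acid target of germ cells, had -1.43 ± 0.19, and the degrading enzyme gene Cyp26a1 0.82 ± 0.38 without passing, in the authors' deposited table. Of 15 CDX, Gdf11 and posterior signal genes 4 rose (26.7%) and 3 fell (20%). Fgf8 (1.68 ± 0.34) and Nr6a1 (0.40 ± 0.07) rose, Gbx2 (-0.62 ± 0.10) and Fgf4 (-0.49 ± 0.09) fell, and Cdx2 (0.92 ± 0.55) and T (0.73 ± 0.43) did not pass in the authors' deposited table.

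Homeobox genes of development outside the clusters had a share of calls near that of the Hox genes. Of 96 measured, 14 rose (14.6%) and 0 fell, with a median fold of 0.39, and of the 74 with a mean under 0 log2 CPM, 7 rose. Msx1 (1.66 ± 0.34) and Mixl1 (1.64 ± 0.36) rose in the authors' deposited table. None of the genes of these lists passed at 10 days.

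**Figure D4:**
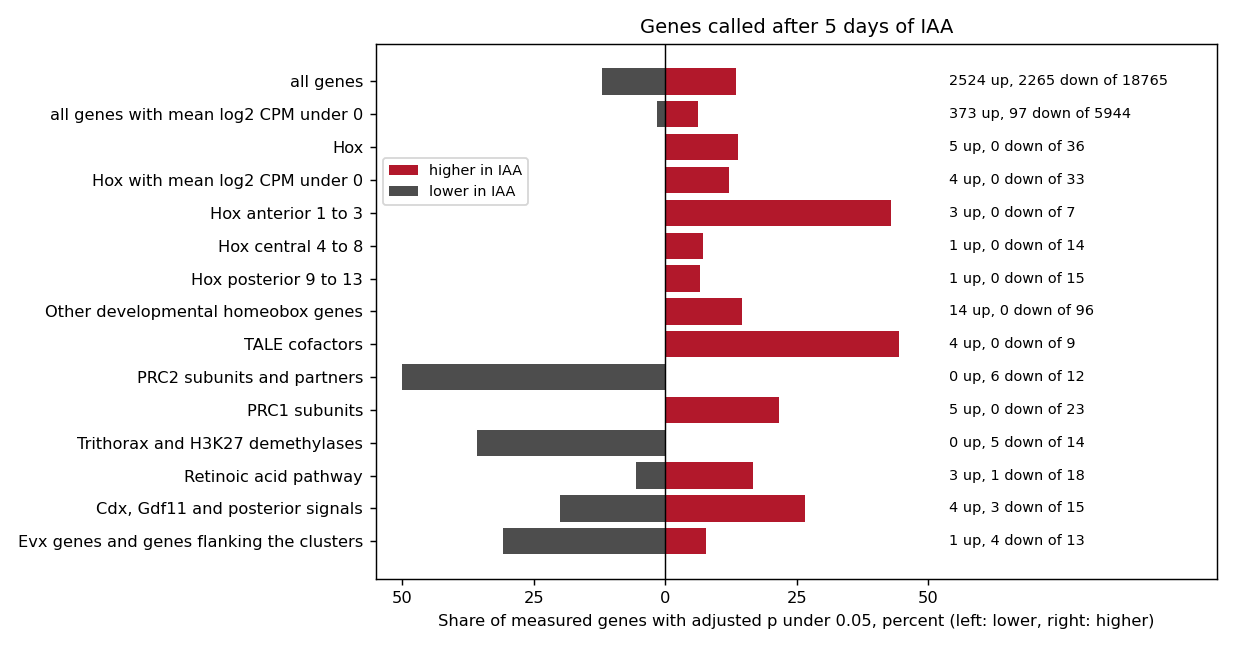
Share of measured genes (horizontal axis, percent) with a limma adjusted p under 0.05 at 5 days, lower in IAA to the left and higher to the right, for all genes, the Hox genes and the lists, with counts at the right. Hox genes (5 of 36 higher, 0 lower) stand close to all genes in the share that rose, and PRC2 subunits are lower in 6 of 12.

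Markers of the stem cells and of other cell types moved along with these results at 5 days, and their part in the Hox changes was not tested. All 11 stem cell markers were measured, with 2 higher (18.2%) and 7 lower (63.6%), against 13.5% and 12.1% of all genes. Their summed level was 6460 CPM in IAA and 7684 in DMSO. Of 21 measured markers of fibroblast feeders 5 rose (23.8%) and 1 fell (4.76%). Lox (4.75 ± 0.64), Col6a1 (1.94 ± 0.45), Col6a2 (1.57 ± 0.32), Mmp2 (1.14 ± 0.10) and Twist1 rose and Vim fell (-0.86 ± 0.07) in the authors' deposited table. Their summed level was 831 CPM in IAA and 919 in DMSO, a sum in which Fn1 (mean 9.29 log2 CPM) and Vim (7.40) are the most abundant. Col6a3, Dcn, Postn and Prrx1 were under 1 read per library. The sums were 189 and 187 CPM for 11 neural markers (3 higher, 1 lower) and 11.9 and 10.0 CPM for 13 mesoderm and endoderm markers (3 higher, 1 lower). At 10 days, where no marker passed, the feeder sum was 1500 CPM in the IAA-withdrawn group and 1268 in its control.

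The Hox transcripts share features that the choice of symbols did not use. Their median length was 2026 bases, against 2743 over all genes at 5 days, and 33 of 36 lay at or below that median. The coding sequence had a median GC content of 0.613, against 0.531, and 34 of 36 members lay above the median of all genes. The 5′ untranslated region was the reverse, with a GC content of 0.517 against 0.621 and 7 of 35 members above. Its median length was 114 bases against 168, but 15 of 36 members lay above the median of all genes. The quartiles were close (82.5 to 282 against 81 to 312), so a short 5′ region was not a shared feature. The deposited folding energy per base of this region was -0.291 against -0.360, which is less stable folding, with 25 of 34 members above. Upstream AUG codons were present in 25 of 35 Hox 5′ regions (71.4%), against 54.4% of 17580.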

How the data were processed

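Trizol-extracted RNA was enriched for poly(A) and built into TruSeq libraries, per the labels. The 2 files are the authors' own comparisons, 1 transcript per gene, and their columns are limma's, per the file headers. Deposited by the authors were the log2 fold and the mean level in log2 CPM, and the t statistic and log-odds, which are scores. Each deposited p-value stands beside its Benjamini-Hochberg adjusted value, which a recomputation over all genes matched within 4.86e-05. The authors also deposited transcript lengths, GC content as a fraction, upstream AUG numbers and folding energies, scores of unnamed unit. As to aligner, counting program, strand setting and build, these were not given in the sources used here.

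From these tables the SE was taken as the fold divided by t, and group levels as the mean plus or minus 0.5 of the log2 fold. Moderated t had 13.4 (5 days) and 15.2 (10 days) degrees of freedom. Reads of rare genes were worked back from the log2 CPM of the authors' tables with a prior count of 0.5. Among genes with small products of (2 × reads + 1), the product came within 0.01 of a whole number for 90.4% of 2905 at 5 days and 89.2% of 2917 at 10 days. For members with larger products, such as Hoxb1 (29393) and Hoxc4 (113135) at 5 days, the tolerance was wider in proportion to the product. A division between groups was accepted with a residual under 0.1 where the next best exceeded 0.25 (log2), and ranges keep all read sets that the SE allows. Intervals and limits cover counting error only, and PCR copies are not independent molecules. The procedure was tested on simulated data of whole reads, which did not cover genes whose product was not whole. Members with such products were not divided.

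Transcript IDs of all 36 members were in GENCODE M21 with equal length, and coordinates are from it (GRCm38, 1-based). The study's build may differ. Groups came from the labels. No count test could be fitted, so the deposited limma test at an adjusted p under 0.05 is the main result. Named in full were genes called in any test, the 10 with the highest mean level over both tables and the 3 largest folds per table. For each other list, up to 4 genes with the smallest p and up to 2 that did not pass were named. Some genes that this rule names are not reported here by name, though the counts include them. The members and lists were chosen with earlier results of these data known. Alternatives were another centring, a length and GC trend, level filters of 0 and 1 log2 CPM, a threshold of 0.01, the Holm adjustment and a t reference. Python 3.11.15, numpy 2.4.6, scipy 1.17.1, pandas 2.3.3 and matplotlib 3.10.9 were used.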

Additional observations from a re-analysis of the deposited data

Results flagged for a closer look

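The changes of 3 of the 24 Hox genes measured at both times differed by a test of the difference itself. The difference is the 5-day log2 fold minus the 10-day log2 fold. Over all genes 10.4% differed, and 3.74% of those with a mean under 0 log2 CPM at both times. With a t reference in place of the normal none of the 3 passed, the smallest adjusted p being 0.0533. Hoxb1 differed by 3.80 ± 1.20 (z test, BH adjusted p = 0.0215 over 18120 genes), with 23 reads in IAA and 3 in DMSO at 5 days and 1 read against 4 to 12 at 10 days. Hoxb8 differed by 3.91 ± 1.30 (adjusted p = 0.0320), with 13 to 25 reads against 0 at 5 days and 0 against 2 to 4 at 10 days. Hoxd13 differed by 2.26 ± 0.80 (adjusted p = 0.0467), with 61.8 against 19.9 reads per library at 5 days and 4.22 against 8.03 at 10 days. In each of the 3 the sign of the fold turned from the first time to the second, and no 10-day fold passed by itself.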

How the results depend on the processing

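The 5 Hox genes called at 5 days were the same 5 with the median fold of all genes set to 0 and with a length and GC trend removed, and so were the 3 whose change differed between the times. The 5-day count was 1 with a mean of at least 0 log2 CPM (Hoxd13, of 3 members left), 0 with at least 1 (1 member left), 1 at an adjusted p under 0.01 (Hoxb3) and 0 with the Holm adjustment. The count for the difference was 0 under each of those 4 settings and 0 with a t reference in place of the normal. The filters leave few members, since nearly all lie under them, and the cause of the other losses was not tested. The 10-day count was 0 under all settings. No gene of any kind passed at 10 days under any of them, so this count says nothing particular about the Hox genes. The median 5-day fold was 0.45 and 0.41 with the other centring and the trend removed, 0.39 over 3 members at the filter of 0 and -0.22, with the sign turned, for the 1 member at the filter of 1. The median 10-day fold, 0.21, was 0.21 and 0.20 with those 2 settings, and turned to -0.17 over 2 members and -0.04 for 1 member at the filters. All 56 values of single genes under the other centring and the trend removed kept their sign and their side of the threshold. No paired analysis was possible because the tables hold no columns of single libraries, although the labels number the replicates alike. For the same reason leaving out a replicate, edgeR and DESeq2 were not run. Depth limits these genes: 16 of 36 averaged under 1 read per library at 5 days.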
